A study of Mus musculus with 8 samples.

Results

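The tumour suppressor p53 and 9 genes of its pathway were followed in immortalised mouse skin fibroblasts kept at low or at normal oxygen: Trp53, which encodes p53 itself, its regulators Mdm2 and Cdkn2a, and its targets Cdkn1a, Ccng1, Plk3, Bax, Aen, Phlda3 and Trp53inp1. The members were chosen by gene name, and all 10 were found among the 17091 features of the deposited table. The KO groups came from mice with the genotype mir210lox/lox, and the WT groups from C57BL/6 mice. Sequence between lox sites is removed by Cre recombinase, but no Cre is named in the labels, so KO serves as the group's name only. The cells of each genotype stayed for 24 hours at 1% oxygen (hypoxia) or at 21% oxygen (normoxia), which gives 4 groups of 2 RNA libraries, or 8 libraries. How the cells were immortalised, and whether their p53 gene was intact, is not given in the sources used here, and the labels do not say whether a group is 1 line or several.

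p53 is a transcription factor that is held at a low level by Mdm2, a ubiquitin ligase that marks it for breakdown and that p53 itself switches on. Cdkn2a gives rise to p16Ink4a, an inhibitor of cyclin-dependent kinases, and to p19Arf, which binds Mdm2 and so frees p53. Stress stabilises the p53 protein, which then binds response elements near its target genes, among them genes that stop the cell cycle and genes that promote cell death. This regulation acts largely on the protein, so the level of Trp53 RNA need not follow p53 activity. Fibroblasts that outgrow senescence in culture have often lost p53 or p19Arf, which is background and was not measured here.

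Binding letters of p53 were looked for in the promoter windows of RefSeq (build GRCm38.p6), each 250 bases before to 50 bases after an annotated start. Windows were found for 9 of the 10 members, 12 windows in all. The p53 consensus, 2 adjacent half-sites of 10 bases that read alike on both strands, was searched with at most 2 mismatches and with the fixed C and G of each half-site kept. Of all 32851 windows 107 held such a match (0.33%), and 2 member windows did, 1 of Cdkn1a and 1 of Ccng1, each with 1 mismatch. Both are shown with 5 bases on each side, 5′ to 3′ on the strand of the gene, and the capitals mark the 20 matched bases.
Cdkn1a: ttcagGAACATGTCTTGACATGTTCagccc
Ccng1: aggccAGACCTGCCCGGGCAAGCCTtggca
The Cdkn1a stretch is chr17:29090923-29090952 on the plus strand, where the match starts 51 bases before the upstream annotated start and 2841 bases before the other. The Ccng1 stretch is chr11:40755457-40755486 on the minus strand, and the match starts 195 bases before the annotated start. A match of letters is a description of the window and was not tested as a binding site.

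Levels are given as normalised reads, the authors' unit, in which 1 read was worth an estimated 0.66 to 1.383. Estimated assigned reads were fewest in KO hypoxia replicate 1 (6.26 M) and most in KO normoxia replicate 2 (12 M). Mir210, the targeted gene, was listed at 1, the lowest value of the table, in all 8 libraries, so its value does not check the genotype labels. The oxygen labels could be read on genes switched on by the hypoxia factor HIF. All 10 were higher in hypoxia than in normoxia averaged over both genotypes, 9 of them at an adjusted p under 0.05 by limma. Libraries of a group correlated across genes at 0.954 to 0.985, and libraries of different groups at 0.946 to 0.988. WT hypoxia replicate 2 and KO normoxia replicate 1 stood apart from the rest, with relatively high values of short transcripts. All 11 fibroblast markers were among the tested genes. In the KO libraries 2 of them were near the lowest value, Lum at 1 to 4 and Fap at 4 to 7. Both were also low in the WT libraries numbered 1. Lum had 6 and 36 in WT hypoxia and 4 and 27 in WT normoxia, and Fap 9 and 40, then 7 and 38. Of 10 measured markers of other cell types, 6 never exceeded 10, and their summed level was 60 and 71 in KO hypoxia, 36 and 68 in KO normoxia, 34 and 38 in WT hypoxia and 53 and 70 in WT normoxia.

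The members covered a wide span of levels, compared here as the mean of the 8 libraries per kilobase of the longest annotated transcript. Ccng1 was the highest member at 1023.1 normalised reads per kilobase, above 95.2% of the 11975 tested genes with a known length. Bax followed at 844.1, Phlda3 at 532.6 and Cdkn2a at 403.2 per kilobase. Mdm2 stood at 203.0, Cdkn1a at 94.1 and Aen at 78.7 per kilobase, against a median of 81.8 over all these genes. Plk3 (44.5), Trp53inp1 (28.8) and Trp53 (15.0 per kilobase) lay below that median. By this measure Trp53 ranked lowest of the 10 members, above 17.4% of genes per kilobase. Its rank is uncertain, because 58.0% of its transcript is matched by the pseudogene Trp53-ps. How reads shared with that copy were counted is not known.

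**Figure D1:**
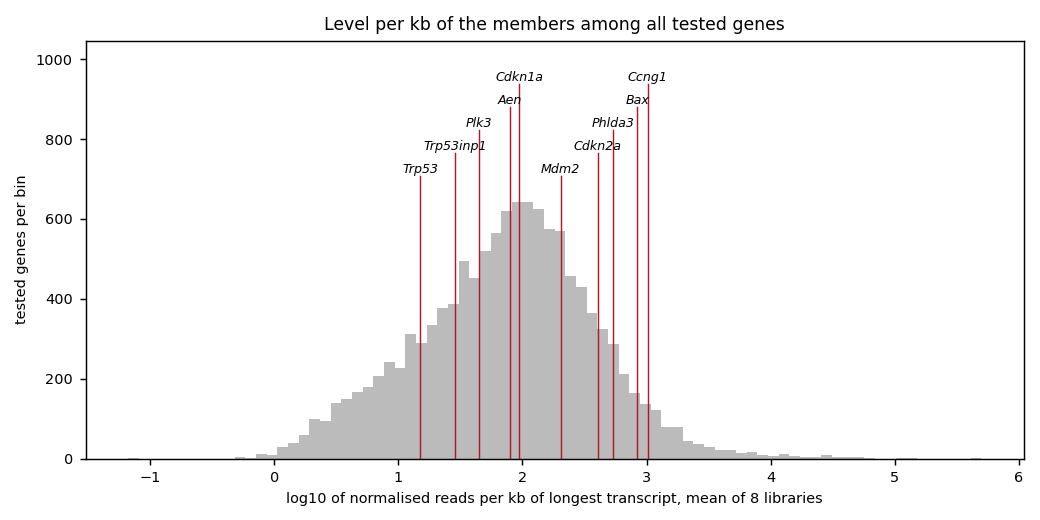
The grey histogram counts tested genes by the log10 of their normalised reads per kilobase (mean of 8 libraries), and each red line marks a member. Trp53 is the leftmost member and Ccng1 the rightmost, with Aen and Cdkn1a near the middle.

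Hypoxia and genotype were each compared over all tested genes with limma, on log2(value + 1), and p was adjusted over the 12107 genes tested. No member passed an adjusted p of 0.05 in any of the 7 comparisons. The share of all tested genes that passed was 0.0578% for hypoxia against normoxia in KO, 0.107% for the same in WT and 0.363% averaged over both genotypes. It was 0% for KO against WT at either oxygen level and for the difference of the hypoxia responses, and 0.0248% for KO against WT averaged over both oxygen levels. At an unadjusted p under 0.05, limma gave 1 member, Plk3, for hypoxia in KO, in WT and on average, and for averaged KO against WT. The other 3 comparisons gave 0 members. Of all 12107 tested genes, 387 were under 0.05 for hypoxia in KO, 766 in WT and 641 on average, and 735 for averaged KO against WT. There were 910 for KO against WT in hypoxia, 363 in normoxia and 380 for the difference of responses. The smallest adjusted p of any member was 0.634. Whether replicates were separate cultures is not stated in the labels, so each p reflects library-to-library spread that may be only technical. In bulk RNA fewer cells of a type and less RNA per cell cannot be told apart.

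**Figure D2:**
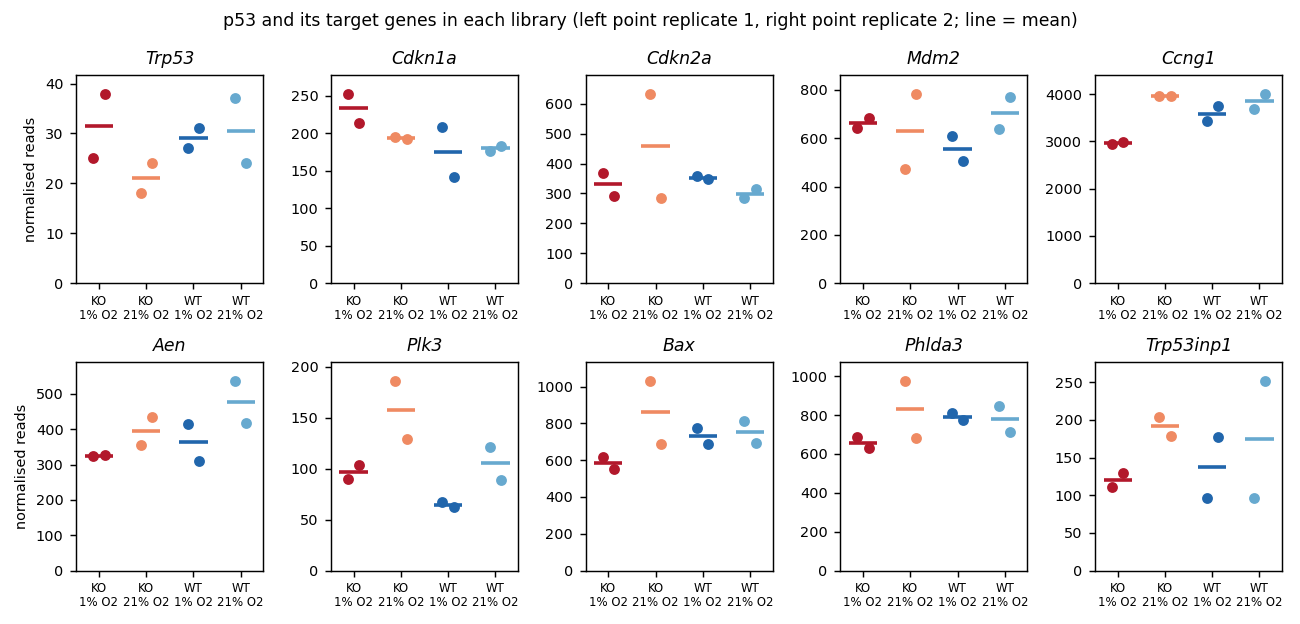
Normalised reads (linear axis from 0) of the 10 members in the 8 libraries, with the points of a group side by side (replicate 1 left) and a line at their mean. Plk3 is lower at 1% than at 21% oxygen and higher in KO than in WT at the same oxygen level, while the WT groups overlap for Trp53, Cdkn1a, Ccng1, Bax, Phlda3 and Trp53inp1.

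Trp53 encodes p53. Its values were 25 and 38 normalised reads in KO hypoxia and 18 and 24 in KO normoxia. WT hypoxia had 27 and 31, against 37 and 24 in WT normoxia. The KO hypoxia libraries both lay above the KO normoxia libraries, and the WT groups overlapped. The log2 fold change of hypoxia over normoxia was 0.55 ± 0.40 (SE, 95% interval -0.35 to 1.44) in KO and -0.04 ± 0.40 (-0.93 to 0.85) in WT, with adjusted p of 0.916 and 0.993. Leaving out single libraries moved the KO value between 0.25 (without KO hypoxia replicate 2) and 0.84 (without KO hypoxia replicate 1), and it was 0.35 without KO normoxia replicate 1. These values rest on an estimated 13 to 50 reads per library, and counting error alone (95% Poisson interval) spans 15.2 to 39.2 around the 25 of KO hypoxia replicate 1. In addition, 58.0% of the Trp53 transcript is matched at 94.9% identity by the processed pseudogene Trp53-ps on chromosome 17, so the split of reads between the pair is uncertain. Trp53 lies on chromosome 11 at 69580359 to 69591873, plus strand (GRCm38).

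The other members of the p53 family were scarcely present. Trp63, an epithelial relative of p53, was at 4 and 4 in KO hypoxia, 21 and 15 in KO normoxia, 6 and 9 in WT hypoxia and 3 and 8 in WT normoxia, and Trp73 was at the lowest value, 1, in all libraries. Both KO normoxia libraries were above the other 6 for Trp63, at values near the detection limit. The difference of the hypoxia responses of Trp63 was -2.39 on the log2 scale, with an adjusted p of 0.857.

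Mdm2, the ligase that p53 both switches on and is degraded by, had 644 and 685 normalised reads in KO hypoxia, against 472 and 785 in KO normoxia. In WT it had 608 and 505 in hypoxia, against 638 and 770 in normoxia. Both WT hypoxia libraries lay below both WT normoxia libraries, whereas in KO the normoxia pair enclosed the hypoxia pair. Hypoxia over normoxia gave log2 fold changes of 0.13 ± 0.27 in KO and -0.34 ± 0.27 in WT (SE), and the difference between them was 0.46 ± 0.38 with an adjusted p of 0.857. Without KO normoxia replicate 1 the KO value was -0.24. Across the 8 libraries Mdm2 followed the trend of the library with transcript length more closely than any other member (Pearson r 0.93, 8 libraries that differ in that trend). The part of that trend in the Mdm2 values was not tested further than by refitting with it removed, which gave 0.15 in KO and -0.32 in WT. Mdm2 lies on chromosome 10 at 117688875 to 117710758, minus strand.

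Cdkn2a, counted as 1 feature for the transcripts of p16Ink4a and p19Arf, had 370 and 292 normalised reads in KO hypoxia and 634 and 286 in KO normoxia. WT hypoxia had 359 and 347, against 285 and 314 in WT normoxia. A single library, KO normoxia replicate 1, was far above the other 7, which lay between 285 and 370. The KO groups overlapped, and both WT hypoxia libraries lay above both WT normoxia libraries. The log2 fold change of hypoxia over normoxia was -0.37 ± 0.34 in KO and 0.24 ± 0.34 in WT, with adjusted p of 0.916 and 0.928. Leaving out KO normoxia replicate 2, so that replicate 1 alone stood for the group, gave -0.95 ± 0.22 in KO. This was the only setting in which a member passed, and it also called by far the most genes of any setting for that comparison. Leaving out replicate 1 instead gave 0.20 ± 0.22. Short transcripts were relatively high in replicate 1, the Cdkn2a transcript is short at 895 bases, and with the length trend removed the KO value was -0.19 ± 0.24. The RNA of Cdkn2a was present in every library, above 86.3% of genes per kilobase. The gene lies on chromosome 4 at 89274471 to 89294653, minus strand.

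Cdkn1a encodes p21, the cyclin-dependent kinase inhibitor through which p53 stops the cell cycle, and its promoter match is the first printed above. It had 253 and 214 normalised reads in KO hypoxia, against 195 and 193 in KO normoxia. WT cells had 209 and 141 in hypoxia, against 177 and 183 in normoxia. Its 2 highest values were those of KO hypoxia, and at each oxygen level both KO libraries were above both WT libraries. The log2 fold change of KO over WT was 0.44 ± 0.25 in hypoxia (95% interval -0.13 to 1.00, adjusted p = 0.655) and 0.11 ± 0.25 in normoxia (-0.46 to 0.67, adjusted p = 1). The average over both oxygen levels, 0.27 ± 0.18, had an unadjusted p of 0.161 by limma. Without WT hypoxia replicate 2, the lowest library, these values were 0.15 in hypoxia and 0.13 on average, and without replicate 1 of that group 0.72 and 0.41. Hypoxia against normoxia gave 0.26 ± 0.25 in KO and -0.07 ± 0.25 in WT. Cdkn1a spans chromosome 17 from 29090976 to 29100727, plus strand, and 1046 bases of it are shared with AC167363.2 on the other strand. Without knowledge of strand in the counting, reads of that locus cannot be told apart from those of Cdkn1a.

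Ccng1 encodes cyclin G1, a p53 target that recruits a phosphatase to Mdm2, and carries the other promoter match. In KO cells it had 2946 and 2987 normalised reads in hypoxia, against 3965 and 3969 in normoxia. In WT cells it had 3434 and 3742 in hypoxia, against 3688 and 4014 in normoxia. The KO hypoxia libraries were the lowest of all 8, and replicates agreed closely in KO, whereas the WT groups overlapped. In log2 terms hypoxia over normoxia was -0.42 ± 0.21 in KO (95% interval -0.89 to 0.05, adjusted p = 0.916) and -0.10 ± 0.21 in WT (-0.57 to 0.37, adjusted p = 0.957). The difference of these responses was -0.32 ± 0.30, with an adjusted p of 0.857. The gene lies on chromosome 11 at 40748552 to 40755311, minus strand.

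Plk3, a polo-like kinase that takes part in the stress response and can phosphorylate p53, was the member with the widest spread, 3.0-fold between its highest and lowest library. Hypoxic KO cells had 90 and 103 normalised reads, against 186 and 129 in normoxic KO cells. Hypoxic WT cells had 67 and 62, against 121 and 89 in normoxic WT cells. In each genotype both hypoxia libraries were below both normoxia libraries, and at each oxygen level both KO libraries were above both WT libraries. The log2 fold change of hypoxia over normoxia was -0.68 ± 0.29 in KO and -0.68 ± 0.29 in WT, with 95% intervals of -1.32 to -0.04 in both. The KO value was -0.42 without KO normoxia replicate 1 and -0.94 without replicate 2 of that group. Averaged over both genotypes it was -0.68 ± 0.20 (-1.13 to -0.23, adjusted p = 0.634, unadjusted p = 0.00735 by limma). KO over WT, averaged over both oxygen levels, was 0.57 ± 0.20 (0.12 to 1.03, adjusted p = 0.699, unadjusted p = 0.0182 by limma). Over the 18 other settings tried, the averaged hypoxia value stayed between -0.81 and -0.52 and the averaged genotype value between 0.41 and 0.70, and none passed. The difference between the hypoxia responses was -0.00 ± 0.41, with an interval of -0.91 to 0.90, and ran from -0.26 to 0.26 with single libraries left out. Plk3 lies on chromosome 4 at 117128655 to 117133963, minus strand, and shares 84 bases with Tctex1d4 on the other strand, which averaged 2.1 normalised reads.

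**Figure D3:**
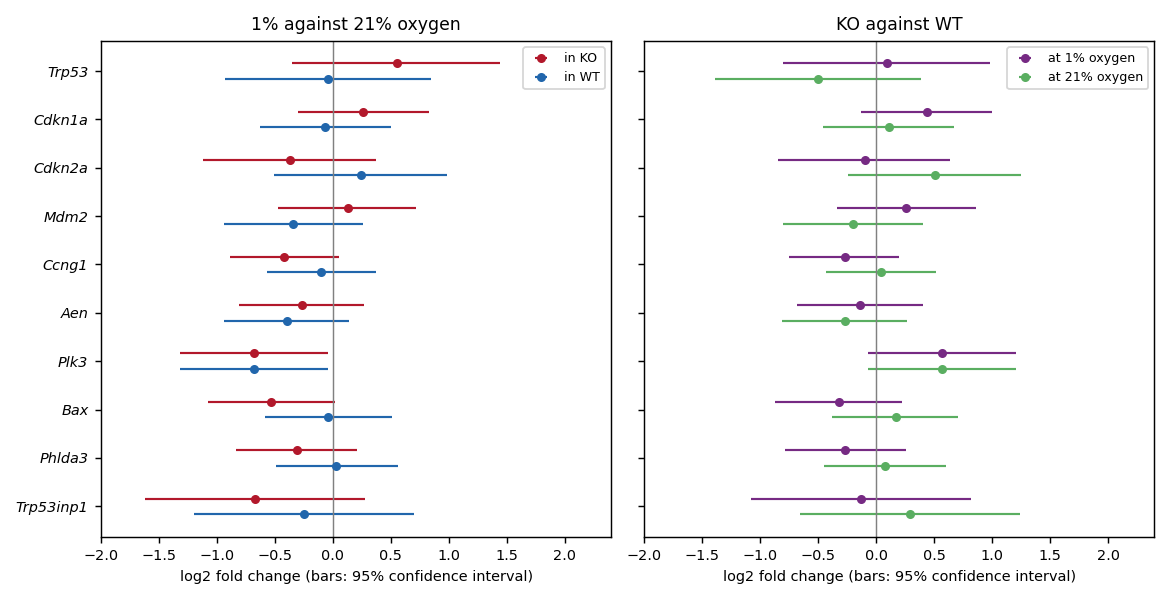
Log2 fold change of each member from limma, with bars for the 95% interval, for 1% against 21% oxygen (left, KO red and WT blue) and for KO against WT (right, at 1% oxygen purple and at 21% oxygen green). The Plk3 points coincide for both genotypes at -0.68 and for both oxygen levels at 0.57. The Plk3 intervals exclude 0 at the left (-1.32 to -0.04) and include it at the right (-0.07 to 1.21). The intervals of all other members include 0.

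Of the death-promoting targets, Bax, which permeabilises the outer mitochondrial membrane, had 616 and 552 normalised reads in KO hypoxia and 1031 and 688 in KO normoxia. WT hypoxia had 775 and 688, against 810 and 695 in WT normoxia. The KO hypoxia libraries were the lowest of all 8 and KO normoxia replicate 1 the highest. The log2 fold change in KO was -0.53 ± 0.25 (95% interval -1.08 to 0.02, adjusted p = 0.916) and in WT -0.04 ± 0.25 (-0.59 to 0.51, adjusted p = 0.988). Without KO normoxia replicate 1 the KO value was -0.24, and without replicate 2 of that group -0.82. With the trend with transcript length removed, the values were -0.35 ± 0.20 in KO and -0.42 ± 0.20 in WT, and their difference was 0.07, against -0.49 with the trend kept. The Bax transcript, at 867 bases, is the shortest of the members, and 22.3% of it is matched by Gm45808, a gene annotated on the same strand. The part of transcript length in the Bax values was not tested further than by the refit. Bax lies on chromosome 7 at 45461697 to 45466898, minus strand.

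Phlda3, a repressor of Akt signalling, followed Bax across the libraries (Pearson r 0.96), the highest value among the 45 pairs of members, whose median was 0.13. It had 688 and 629 normalised reads in KO hypoxia, against 976 and 683 in KO normoxia, and 811 and 772 in WT hypoxia, against 844 and 711 in WT normoxia. Both KO hypoxia libraries were among the 3 lowest, and KO normoxia replicate 1 was the highest, as for Bax. Its log2 fold change was -0.31 ± 0.24 in KO and 0.03 ± 0.24 in WT, with adjusted p of 0.916 and 0.992. Without KO normoxia replicate 1 the KO value was -0.05, and without replicate 2 of that group -0.57. Both genes share their libraries and a negative relation to the length trend, with r of -0.60 for Bax and -0.75 for Phlda3. Phlda3 lies on chromosome 1 at 135766119 to 135769136, plus strand.

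Aen, an exonuclease that p53 switches on during apoptosis, had 323 and 328 normalised reads in KO hypoxia, against 355 and 434 in KO normoxia. In WT hypoxia it had 415 and 310, against 537 and 418 in WT normoxia. Both hypoxia libraries were below both normoxia libraries in each genotype, by a narrow margin in WT (415 against 418). The averaged log2 fold change of hypoxia over normoxia was -0.33 ± 0.17 (95% interval -0.72 to 0.05, adjusted p = 0.922). Aen lies on chromosome 7 at 78895854 to 78911209, plus strand.

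Trp53inp1, a nuclear protein that promotes p53 phosphorylation and autophagy, had 111 and 129 normalised reads in KO hypoxia and 204 and 179 in KO normoxia. It was at 97 and 178 in WT hypoxia and at 97 and 252 in WT normoxia. The KO groups did not overlap, whereas in WT both libraries numbered 1 were at 97 and both numbered 2 were higher. Its SE was accordingly the largest of the members, with log2 fold changes of -0.67 ± 0.43 in KO and -0.25 ± 0.43 in WT and adjusted p of 0.916 and 0.947. The gene lies on chromosome 4 at 11156431 to 11174379, plus strand.

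Counting members whose groups did not overlap gave, for hypoxia against normoxia in KO, 2 members higher (Trp53 and Cdkn1a) and 5 lower (Ccng1, Aen, Plk3, Bax and Trp53inp1). Of all tested genes 15.9% were higher and 16.3% lower in that way. In WT 1 member was higher (Cdkn2a) and 3 lower (Mdm2, Aen and Plk3), against 18.9% and 19.9% of all genes. For KO against WT in hypoxia 3 members were higher (Cdkn1a, Mdm2 and Plk3) and 3 lower (Ccng1, Bax and Phlda3), against 26.2% and 24.5% of all genes. In normoxia 2 were higher (Cdkn1a and Plk3) and 0 lower, against 10% and 11%. With the 4 libraries of each side pooled, 0 members separated hypoxia from normoxia, against 2.06% of genes higher and 1.65% lower, and 0 separated KO from WT, against 1.95% higher and 1.7% lower. Aen and Plk3 were the members lower in hypoxia in each genotype, and Cdkn1a and Plk3 those higher in KO at each oxygen level. The 5 of 10 lower in KO hypoxia stood above the 16.3% of all genes, the other counts lay nearer to their backgrounds, and none of these members passed limma.

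The median log2 fold change of the 10 members for hypoxia against normoxia was -0.34 in KO, with 3 positive, and -0.08 in WT, with 2 positive. Over all tested genes the medians were 0.01 and -0.02, with 51.1% and 47.8% positive. Averaged over both genotypes the members' median was -0.20 with 2 of 10 positive (Trp53 and Cdkn1a), against 0.00 and 50.4% over all genes. For KO against WT the members' median was -0.12 in hypoxia, 0.09 in normoxia and -0.02 on average. The hypoxia comparisons within KO and within WT share no library with each other, whereas the averaged ones use all 8 libraries and the genotype comparisons share libraries with the hypoxia comparisons.

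**Figure D4:**
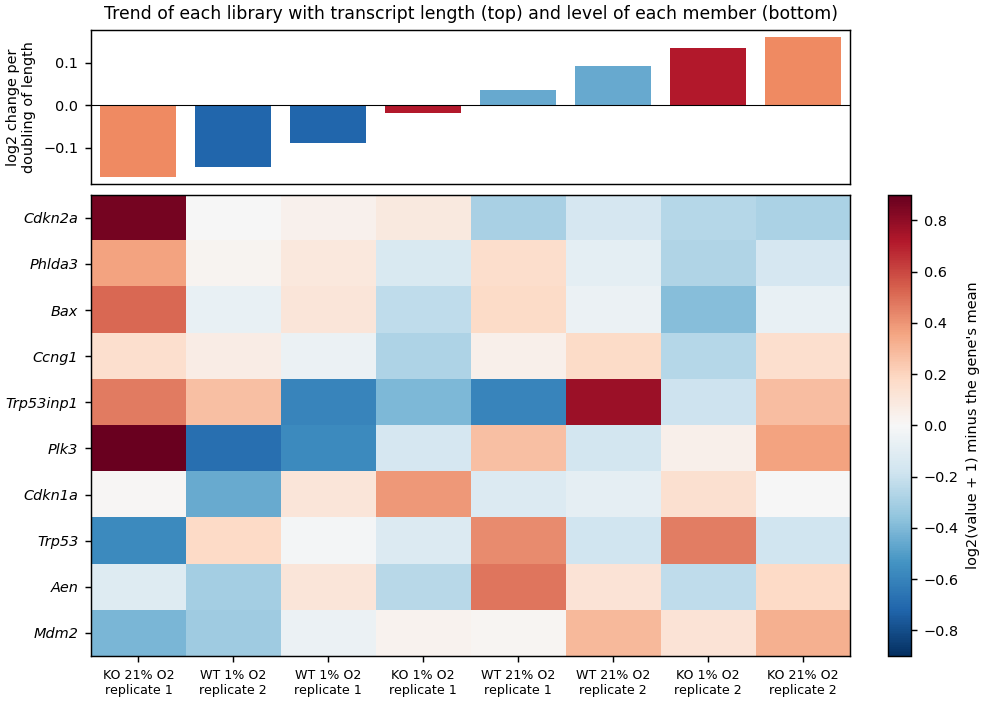
The bars give each library's slope on transcript length (log2 change per doubling of length), and the colours give each member's log2(value + 1) minus its mean, with members ordered by their correlation with that trend. KO normoxia replicate 1, at the left with the lowest trend, is high for Cdkn2a, Phlda3, Bax, Plk3 and Trp53inp1 and low for Mdm2 and Trp53.

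Over the 8 libraries the members did not form 1 common pattern. Their pairwise Pearson correlations ran from -0.76 (Cdkn2a with Mdm2) to 0.96 (Bax with Phlda3), and 26 of 45 were positive. Trp53 correlated with Cdkn2a at -0.73, and with its target Cdkn1a at -0.18. The tested genes most like Cdkn1a were Crtc3 (Pearson r 0.962), Ccdc120 (0.96), Sike1 (0.956), Pomt1 (0.947) and Mkl1 (0.946). Those most like Trp53 were Zfp931 (0.959), Nadkd1 (0.895), Tspyl5 (0.889), Fam217b (0.876) and Zfp606 (0.87). These are the highest of 12107 genes over only 8 libraries and describe a shared profile, with WT hypoxia replicate 2 low for the Cdkn1a group (43 for Crtc3, against 73 to 133 elsewhere).

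The wider pathway did not pass the test either. Of 48 other p53 targets 44 were in the table and 41 were tested, and 0 were called in any of the 7 comparisons. At an unadjusted p under 0.05 limma gave 3 of the 41 for averaged hypoxia and 4 for averaged genotype. Of all 12107 tested genes 641 and 735 were under 0.05 in these comparisons. The median log2 fold change of the 41 was -0.09 for hypoxia (18 positive) and 0.04 for KO against WT (22 positive). Over all genes 50.4% and 47.8% were positive. Lowest in p for hypoxia were Eda2r, a death receptor of the TNF receptor family (-0.43 ± 0.16), Ephx1, an epoxide hydrolase (-0.43 ± 0.18), and Dcxr, a sugar and carbonyl reductase (-0.88 ± 0.39), with adjusted p of 0.859 to 0.922. For KO against WT they included Psrc1, a mitotic spindle protein (0.56 ± 0.22), and Pltp, a phospholipid transfer protein (-0.97 ± 0.38), each with an adjusted p of 0.742. Pltp was at 24 to 25 in KO, and the WT replicates differed, with 37 and 79 in hypoxia and 25 and 81 in normoxia.

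Among 33 tested regulators and cofactors of p53, 14 were positive in hypoxia and 19 in KO against WT, with medians of -0.01 and 0.05. Over all genes 50.4% and 47.8% were positive. Taken by genotype, 26 of the 33 were positive for hypoxia in KO (median 0.12) and 11 in WT (median -0.14), against 51.1% and 47.8% of all genes. For the difference of these responses 25 were positive, with a median of 0.35, and KO against WT had medians of 0.23 in hypoxia and -0.10 in normoxia. Summed over the 33, KO normoxia replicate 1 was the lowest library at 14973, against 21755 in replicate 2 and 19565 and 20854 in KO hypoxia. Short transcripts were relatively high in that replicate 1. The part of this library and of transcript length in the counts by genotype was not tested. None of the 33 passed limma in any of the 7 comparisons, and at an unadjusted p under 0.05 there were 0 to 4. The 4 were for KO against WT in hypoxia, where 910 of all 12107 tested genes were under 0.05. Rpl11, a ribosomal protein that binds Mdm2, was 0.88 ± 0.33 in averaged hypoxia (adjusted p = 0.861), at only 6 to 21 normalised reads per library. Daxx was -0.34 ± 0.15 and Wwox 0.30 ± 0.16 in hypoxia, and Hipk2, a kinase that phosphorylates p53, was 0.52 ± 0.21 in KO against WT (adjusted p = 0.764). Wwox, at -0.30 ± 0.16, and Rfwd2, a ubiquitin ligase for p53 at -0.36 ± 0.20, were next in KO against WT.

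In the cell-cycle arm, the 21 tested genes of cyclin-dependent kinase inhibitors, their cyclins and pocket proteins had medians of 0.03 in hypoxia and -0.01 in KO against WT. Ccne1, cyclin E1, had 332 and 302 normalised reads in KO hypoxia and 299 and 320 in KO normoxia, against 423 and 452 in WT hypoxia and 475 and 642 in WT normoxia. All 4 KO libraries were below all 4 WT libraries, at a log2 fold change of -0.65 ± 0.16 (unadjusted p = 0.00226 and adjusted p = 0.394 by limma). Cdkn1c, the p21 relative p57 (0.78 ± 0.38), and Cdk6 (0.47 ± 0.24) had adjusted p of 0.838 and 0.86, and in hypoxia Ccne2 (0.49 ± 0.26), Cdkn1b (0.28 ± 0.15) and Pcna (0.26 ± 0.14) had 0.922. The 20 mitotic and replication genes that p21 lowers through the DREAM repressor complex had 0 called. Their medians were 0.12 in hypoxia (13 positive) and 0.15 in KO against WT (15 positive), against 50.4% and 47.8% positive over all genes. Foxm1 (0.62 ± 0.23), Ccnb2 (0.60 ± 0.23) and Plk1 (0.41 ± 0.25) were lowest in p for KO against WT, and Bub1 (0.42 ± 0.19), Plk4 (0.30 ± 0.18) and Mcm5 (-0.28 ± 0.22) for hypoxia. For Foxm1, Ccnb2 and Plk1 both WT libraries numbered 2 were below both numbered 1. Foxm1 had 574 and 315 in WT hypoxia and 622 and 377 in WT normoxia, against 616 to 781 in KO. Plk1 had 558 and 306, then 473 and 250, against 444 to 554 in KO. Ccnb2 had 931 and 622, then 859 and 417, against 958 to 1063 in KO.

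The BCL2 family, to which Bax belongs, had 13 tested genes with medians of -0.18 in hypoxia and -0.02 in KO against WT, and 0 called. Bok, a pore-forming relative of Bax, had 357 and 440 normalised reads in KO hypoxia and 436 and 348 in KO normoxia, against 840 and 715 in WT hypoxia and 682 and 575 in WT normoxia. Every KO library was below every WT library, and the averaged log2 fold change was -0.82 ± 0.17 (95% interval -1.19 to -0.46, adjusted p = 0.27). Bcl2l2, a survival protein, was -0.47 ± 0.16, and Bid, which activates Bax, was -0.50 ± 0.18 (adjusted p = 0.699 each). For hypoxia Bid was -0.45 ± 0.18 and Bmf -1.11 ± 0.62, with adjusted p of 0.892 and 0.922.

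Among relatives of the members, Ccng1 and its paralog Ccng2 had hypoxia fold changes of opposite sign. Ccng2, the cyclin G2 gene, had 215 and 218 normalised reads in KO hypoxia, against 137 and 136 in KO normoxia, and 216 and 339 in WT hypoxia, against 94 and 149 in WT normoxia. Both hypoxia libraries were above both normoxia libraries in each genotype, and the averaged log2 fold change was 0.92 ± 0.21 (adjusted p = 0.227), against -0.26 ± 0.15 for Ccng1. Neither passed the test, and the difference between the paralogs was not tested. Isg20, a relative of Aen, was 0.62 ± 0.26 and Ccni 0.31 ± 0.15. Of 10 tested neighbours or overlapping partners of the members 1 passed, Gys1, which encodes glycogen synthase and lies close to Bax. Gys1 had 480 and 486 normalised reads in KO hypoxia, against 280 and 227 in KO normoxia, and 472 and 448 in WT hypoxia, against 243 and 250 in WT normoxia. It rose by 0.92 ± 0.15 (adjusted p = 0.0391), while Ftl1, another neighbour of Bax, was -0.37 ± 0.24 and Bax -0.28 ± 0.17. The other neighbours named by p were Ccdc163 (0.54 ± 0.32 in either averaged comparison), Btbd19 (0.26 ± 0.19 in KO against WT) and Hmmr (0.22 ± 0.19 in KO against WT).

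**Figure D5:**
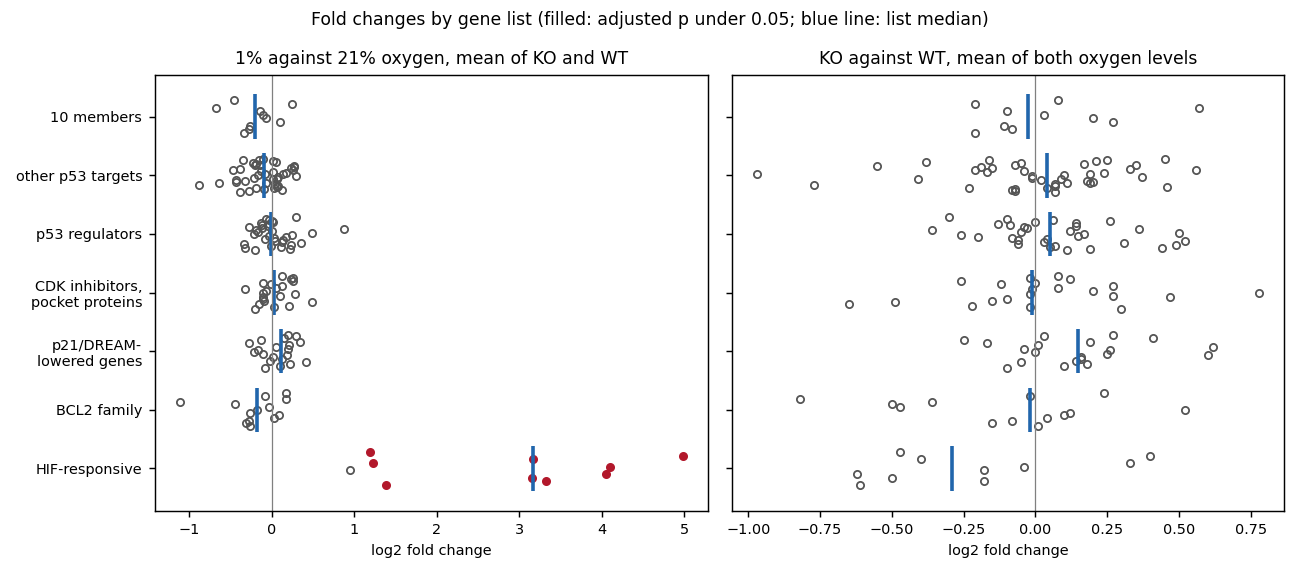
Each point is the log2 fold change of 1 tested gene, by list, for 1% against 21% oxygen (left) and KO against WT (right), each averaged over the other factor, with filled points at an adjusted p under 0.05 and blue lines at list medians. The p53 lists lie around 0, with medians of -0.20 to 0.15, and 9 HIF-responsive genes are filled at the left.

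The responses of HIF genes gave a scale for the members in the same libraries. Averaged over both genotypes, Slc16a3, a lactate exporter, rose by 4.98 ± 0.29, Egln3, a HIF prolyl hydroxylase, by 4.10 ± 0.21, and Bnip3, a mitophagy receptor related to the BCL2 family, by 3.16 ± 0.18 (adjusted p from 2.7e-05 to 2.9e-05). Car9, Ankrd37, Pdk1, Adm, Ndrg1 and Vegfa also rose, by 1.19 to 4.05, with adjusted p of at most 0.0391. For the members, every 95% interval of the averaged hypoxia response lay between -1.13 and 0.88. Of the 11 fibroblast markers 6 were positive in averaged KO against WT, against 47.8% of all genes, with a median of 0.01. Fap, at 4 to 7 in KO, had 9 and 40 in WT hypoxia and 7 and 38 in WT normoxia. The 3 markers lowest in p for KO against WT were Dcn at -1.70 ± 0.31, Fap at -1.75 ± 0.60 and Col3a1 at -0.75 ± 0.24. Their adjusted p were 0.211, 0.691 and 0.645. The part of such differences between the lines in the members' genotype values was not tested.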

How the data were processed

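RNA was measured in 8 libraries in 4 groups. Per the labels' protocols, total RNA came from a miRNeasy kit, and the library set was NEB's small RNA set for the SOLiD platform. The deposited values are scores: the authors' normalised counts, rounded to whole numbers with a lowest value of 1. Their normalisation, aligner, counting program, build and use of strand were not given in the sources used here. From the spacing of low values, 1 read was worth 0.66 to 1.383. Rounding hides whole reads, so no count model was run and depth is an estimate. Intervals around single values are exact Poisson intervals and cover counting error only. The number of unused sample columns was 0.

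Genes with at least 10 in at least 2 libraries were tested (12107, 4984 untested; all 10 members passed) with limma 3.58.1 (R 4.3.3): log2(value + 1), a pseudocount of 1 that understates changes of low genes, 4 group means, a trended prior, 2-sided moderated tests, and Benjamini-Hochberg adjustment over all tested genes at 0.05. Every adjusted p is from limma. The code was tested on simulated data. The alternatives changed the pseudocount, the filter, the scaling, library weights, a replicate block, the length trend, and the libraries used.

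Transcript lengths, positions and overlaps are from GENCODE M21 (GRCm38), and copies were searched with BLAST 2.17.0 (at least 90% identity over 100 bases). Promoters are from RefSeq. The members and gene lists were chosen with earlier results of these data known. Named genes are all 10 members and, from each other list, those called and the 3 with the smallest p in each averaged comparison. A gene that this rule names is not reported here. The 5 genes most like Cdkn1a and Trp53 were taken by Pearson correlation.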

Additional observations from a re-analysis of the deposited data

How the results depend on the processing

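Of 70 member values (10 members in 7 comparisons), 1253 alternative values were computed: 1191 kept direction and side of the threshold, 61 turned sign without passing it, and 1 passed. The cause of these changes was not tested. The Plk3 difference of responses was -0.00 in the main fit, so it had no direction to keep. Its 18 alternative values, from -0.26 to 0.26, are counted among the 1191. Count models were not run because the values are not raw counts.

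Counts of genes called differed as follows. Without the filter on low values they were 28 for hypoxia in WT (13 with it), 14 and 19 for KO against WT in hypoxia and in normoxia (0 each), 29 for the difference of responses (0) and 30 for averaged KO against WT (3). With library weights hypoxia in WT gave 21. With the length trend removed hypoxia gave 17 in KO (7 without) and 23 in WT, and averaged KO against WT 6. Without both WT hypoxia replicate 2 and KO normoxia replicate 1 the counts were 6 for hypoxia in WT, 25 for averaged hypoxia (44 with all) and 0 for averaged KO against WT.

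The replicate numbers are shared between groups, but the labels do not say that they pair libraries. Deviations of same-numbered libraries correlated at 0.23 between the KO groups and 0.57 between the WT groups, and at -0.11 between KO normoxia and WT hypoxia. With the replicate block hypoxia in KO gave 11 genes, and no member's call changed.

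Leaving out 1 library at a time gave 4 to 760 genes for hypoxia in KO (760 without KO normoxia replicate 2, 4 without KO hypoxia replicate 2), with 0 to 1 members. It gave 1 to 20 for hypoxia in WT (1 without WT hypoxia replicate 2), 12 to 50 for averaged hypoxia (12 without the same library) and 0 to 0 for averaged KO against WT, whichever library was left out. A lone library was assumed to vary like the other groups.

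Members that turned sign, with the log2 fold change: with the length trend removed, hypoxia in WT for Phlda3 (-0.14) and Cdkn2a (-0.12), KO against WT in hypoxia for Bax (0.08) and Cdkn2a (0.29), the difference for Bax (0.07) and Aen (-0.11), and averaged KO against WT for Bax (0.04). Without both libraries, hypoxia in KO for Cdkn2a (0.20) and Mdm2 (-0.24), and in WT for Bax (0.05) and Cdkn1a (0.21). KO against WT turned in hypoxia for Trp53inp1 (0.30), in normoxia for Bax (-0.12), Phlda3 (-0.18), Cdkn2a (-0.06) and Mdm2 (0.16), and on average for Cdkn2a (-0.10). The difference turned for Mdm2 (-0.04), Aen (-0.22) and Trp53inp1 (0.11), and averaged hypoxia for Phlda3 (0.01) and Cdkn2a (0.23).

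Ranges over the libraries left out that crossed 0 were as follows. For hypoxia in KO they were -0.95 to 0.20 for Cdkn2a and -0.24 to 0.49 for Mdm2. In WT they were -0.34 to 0.26 for Trp53, -0.35 to 0.21 for Cdkn1a, -0.15 to 0.07 for Bax, -0.09 to 0.15 for Phlda3 and -0.93 to 0.43 for Trp53inp1. KO against WT in hypoxia gave -0.20 to 0.38 for Trp53, -0.27 to 0.07 for Cdkn2a, -0.35 to 0.07 for Aen and -0.57 to 0.30 for Trp53inp1. In normoxia it gave -0.06 to 1.08 for Cdkn2a, -0.57 to 0.16 for Mdm2, -0.02 to 0.11 for Ccng1, -0.12 to 0.46 for Bax, -0.18 to 0.33 for Phlda3 and -0.40 to 0.97 for Trp53inp1. The difference ran from -0.26 to 0.26 for Plk3, -0.08 to 0.34 for Aen and -1.11 to 0.26 for Trp53inp1. Averaged hypoxia ran from -0.04 to 0.24 for Cdkn1a, -0.35 to 0.22 for Cdkn2a and -0.29 to 0.08 for Mdm2. Averaged KO against WT ran from -0.08 to 0.49 for Cdkn2a, -0.15 to 0.21 for Mdm2, -0.22 to 0.07 for Bax, -0.22 to 0.03 for Phlda3 and -0.27 to 0.42 for Trp53inp1. At these depths the 13 to 50 reads of Trp53 limit what could be seen.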
